A study of Mus musculus with 8 samples.

Results

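Strial intermediate cell and melanocyte genes were examined in the inner ear of mice heterozygous for a frameshift in Thra that alters thyroid hormone receptor α1 (TRα1), with wild-type littermates for comparison. The set comprised Kcnj10, Kcnj13, Dct, Tyr, Tyrp1, Pmel, Mlana, Mitf, Met and Ednrb, that is 10 of the 47517 gene symbols in each count file, and was chosen by gene identity. Whole inner ears were collected at postnatal day 14, without any treatment per the labels, from 4 TRalpha1 mutant samples and 4 wild-type control samples. The series title names the cochlea, while its design text and the sample labels name the inner ear. The labels do not give the strain or coat colour, nor whether a sample is 1 animal or a pool, and titles with 2 numbers occur in both genotypes. The p-values below thus cover only how much these samples vary, some of which may be technical.

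The stria vascularis is the epithelium of the cochlear lateral wall that secretes potassium into the endolymph. Its intermediate cells descend from neural crest melanocytes and lie between the marginal and basal cells. Their inward rectifier KCNJ10, also called Kir4.1, generates the endocochlear potential that drives current through the hair cells. Like skin melanocytes they express the pigment enzymes and the melanocyte transcription factor MITF, and mice without these cells are deaf.

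Total counts were 19662433 to 23064578 in mutant libraries and 18930841 to 22028397 in wild-type libraries, which puts a floor of 3 counts at 0.132 to 0.159 CPM. CPM are counts per megacount of library, after scaling of the libraries by edgeR's TMM method. Marker lists of neighbouring cells were measured in the same libraries, as the sum of CPM over each list. Strial marginal cell markers summed to between 929.7 and 1174 CPM in mutant and between 975.8 and 1209 CPM in wild-type libraries (9 genes, 8 of them with a negative log2 fold change, 0 called). Strial basal cell markers summed to between 1254 and 1560 CPM in mutant and between 1120 and 1478 CPM in wild-type libraries (8 genes, 2 negative, 0 called). Mucosal epithelium markers summed to between 42.1 and 52.3 CPM in mutant and between 236.7 and 667.6 CPM in wild-type libraries (8 genes, 8 negative, 4 called). Most of the mutant sums was Epcam (38.4 to 49.9 CPM, against 44.2 to 60.1 CPM in wild-type libraries). Krt4, Krt5, Krt15 and Aqp3 were near 0 in mutant libraries, at 0 to 2 counts each. Bpifa1 made up most of the wild-type sums (157.2 to 518.6 CPM, against 0.307 to 1.26 CPM in mutant libraries).

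All 10 genes were detected in every library and passed the expression filter, and none differed between genotypes at the threshold. With genotype as the only term in edgeR's quasi-likelihood test, 0 of the 10 had a Benjamini-Hochberg adjusted p under 0.05, against 0.0421% of the 21392 genes tested (0.00467% higher and 0.0374% lower). At an unadjusted p under 0.05, 1 of the 10 passed (Pmel, higher), against 5.30% of all genes (2.21% higher and 3.09% lower). Positive log2 fold changes (mutant over wild-type) were found for 8 members and negative ones for Kcnj10 and Dct. The median of the 10 was 0.081, and that of all genes tested was -0.0061. Leaving out 1 library moved the median of the 10 to between 0.023 and 0.198. Complete separation of the genotypes occurred in 0 of the 10 members and in 2.69% of all genes (1.28% higher and 1.41% lower). In whole-organ RNA, fewer cells of a type and less RNA per cell cannot be told apart.

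**Figure D1:**
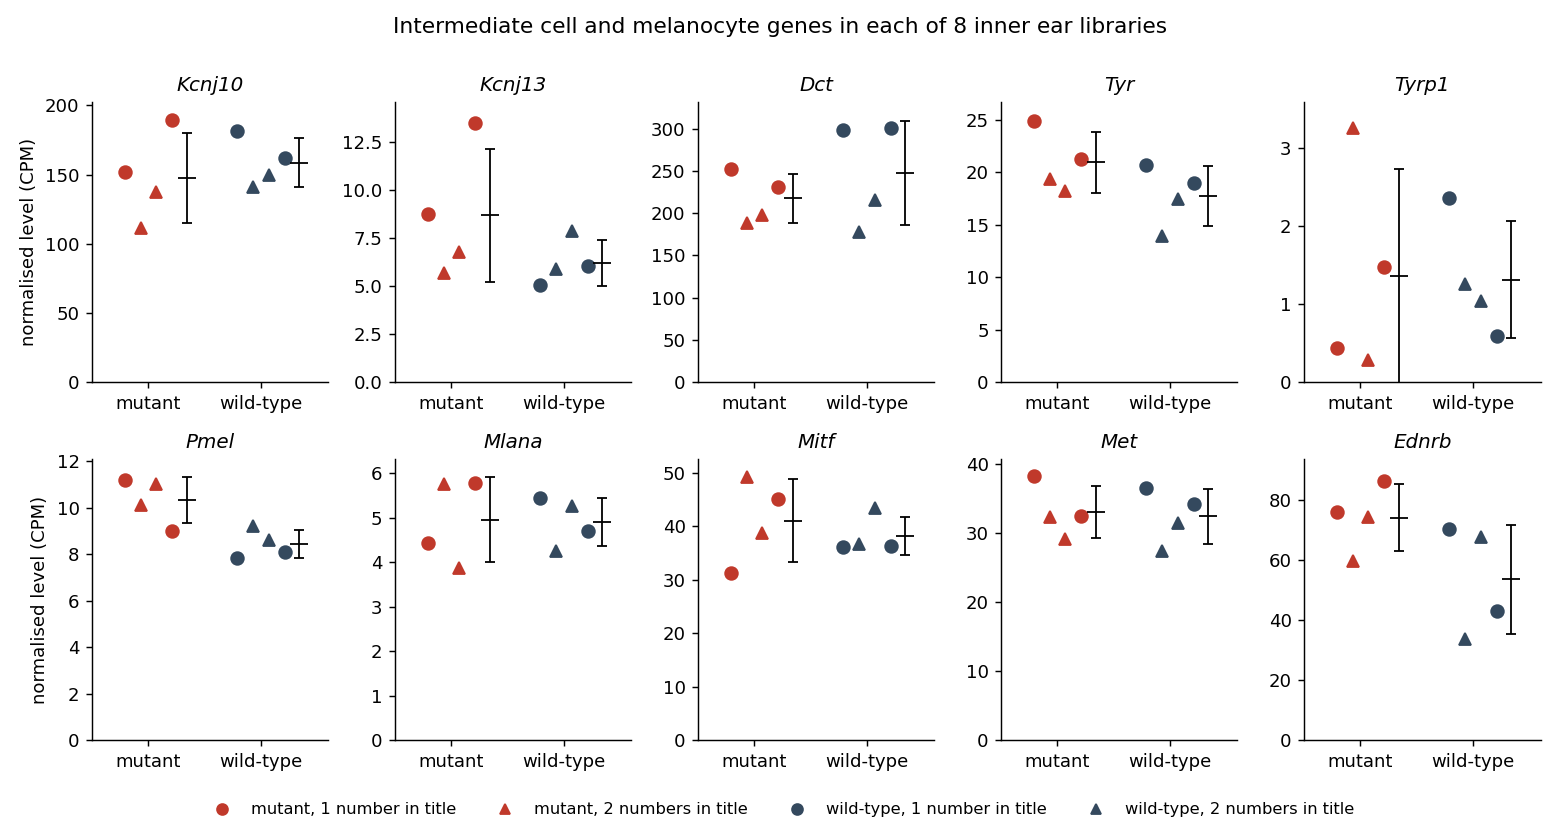
Normalised level in CPM of each of the 10 genes in the 4 mutant (red) and 4 wild-type (dark grey) libraries, in replicate order, with the mean and SD of each genotype in black. Circles are samples with 1 number in the title and triangles those with 2, and in every panel the genotypes overlap.

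The levels per length differed widely between members, in an order shared by both genotypes at its top and bottom. Dct, the enzyme dopachrome tautomerase of melanin synthesis, stood highest at 36.9 ± 4.998 CPM per kb of exon in mutant and 42.0 ± 10.5 CPM per kb in wild-type libraries (SD, n = 4 each). Kcnj10 followed at 27.3 ± 5.98 CPM per kb in mutant and 29.3 ± 3.27 CPM per kb in wild-type libraries, and lay below Dct in 8 of 8 libraries although the ranges of both genes over the 8 overlapped. Ednrb came next, at 17.4 ± 2.59 CPM per kb in mutant and 12.6 ± 4.25 CPM per kb in wild-type libraries. Mitf, Kcnj13, Mlana, Met and Pmel formed a middle group with means over all 8 libraries from 6.39 down to 4.09 CPM per kb. Each neighbour in that group overlapped the next, and the order was kept in only 5 or 6 of the 8 libraries for Mitf over Kcnj13, Kcnj13 over Mlana, Mlana over Met and Met over Pmel. Tyr, at 2.95 ± 0.412 CPM per kb in mutant and 2.50 ± 0.404 CPM per kb in wild-type libraries, was below Pmel in 8 of 8 libraries. Tyrp1 was the lowest of the 10, at 0.484 ± 0.485 CPM per kb in mutant and 0.466 ± 0.266 CPM per kb in wild-type libraries, with no overlap with Tyr.

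**Figure D2:**
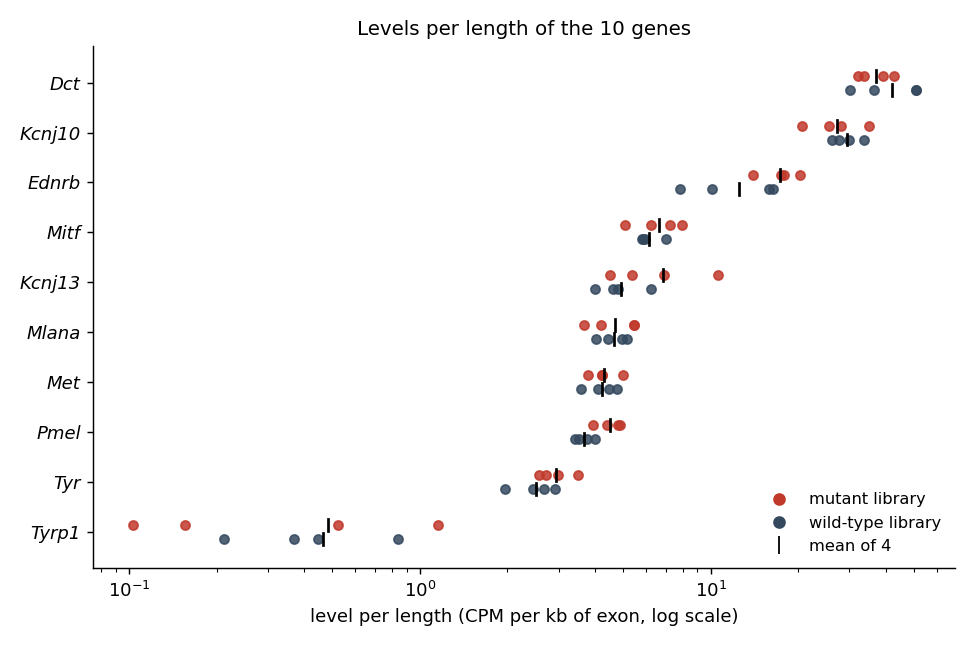
Level per length of the 10 genes (CPM per kb of exon, log scale), with mutant libraries above wild-type libraries in each row and a bar at each mean of 4. Dct and Kcnj10 lie at the top and Tyrp1, with a range over the 8 libraries from 0.103 to 1.15 CPM per kb, at the bottom.

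Kcnj10 (chr1:172341210-172374085, plus strand, mm10) had 151.6, 111.7, 137.6 and 189.2 CPM in mutant replicates 1 to 4, against 181.8, 141.3, 149.4 and 162.1 CPM in wild-type replicates 1 to 4. The mutant values spanned a wider range than the wild-type values, with replicate 2 lowest and replicate 4 highest of all 8 libraries. The log2 fold change was -0.11 (SE 0.16, 95% interval -0.46 to 0.25, edgeR adjusted p = 1), and it was 0.0070 without mutant replicate 2. KCNJ10 is also known as a channel of glia and of cochlear supporting cells. Markers of satellite glia and Schwann cells summed to between 10950 and 14430 CPM in mutant and between 8581 and 12250 CPM in wild-type libraries (9 genes, 8 positive, 1 negative, 0 called), with mutant replicate 4 highest, and their part in the Kcnj10 values was not tested.

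Kcnj13 (chr1:87386363-87394729, minus strand) encodes the inward rectifier Kir7.1, found in intermediate cells, retinal pigment epithelium and the epithelium of the choroid plexus. It had 8.78, 5.70, 6.78 and 13.5 CPM in mutant replicates 1 to 4, against 5.06, 5.88, 7.91 and 6.07 CPM in wild-type replicates 1 to 4. Mutant replicates 1 and 4 lay above every wild-type library, whereas replicates 2 and 3 fell within the wild-type range. The log2 fold change was 0.48 (SE 0.27, 95% interval -0.14 to 1.10, edgeR adjusted p = 0.943). Without mutant replicate 4 it was 0.19. The difference was 0.96 on the log2 scale among samples with 1 number in the title, which include that replicate, and -0.13 among those with 2.

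Mutant replicate 4 also stood apart in markers of the choroid plexus, the secretory epithelium of the brain ventricles. All 9 markers on that list, which was drawn up after these data had been seen, were highest in this library of the 8. Their summed level was 77.8, 91.1, 57.0 and 2161 CPM in mutant replicates 1 to 4, and between 66.0 and 82.0 CPM in wild-type libraries (9 positive, 0 called). Ttr, the thyroxine carrier transthyretin, made up 2021 CPM of it. The folate receptor Folr1 had 7.62 CPM and the bicarbonate transporter Slc4a5 11.3 CPM there, while each other library held at most 1.10 and 1.66 CPM of these genes. The part of this RNA in the Kcnj13 level of the library was not tested. Rpe65, the retinoid isomerase that defines the retinal pigment epithelium, had 8 counts in it and 5 to 21 counts in the others. Of the same marker list, Lrat (13 counts, against 3 to 10 in the others) and Ttr were highest in this library. Rgr was near 0 throughout, with 3 counts in this library and 0 to 3 in the others. Rlbp1 (15.6 CPM) and Best1 (1.91 CPM) lay within the range of the others there. Kcnj13 also shares 623 of its 1270 exon bases with Gigyf2 on the opposite strand. Whether reads were counted by strand is not given in the sources used here. Gigyf2 averaged 73.0 ± 6.64 CPM in mutant and 64.9 ± 5.08 CPM in wild-type libraries (SD, n = 4 each), with an edgeR adjusted p of 0.929 at a log2 fold change of 0.17.

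**Figure D3:**
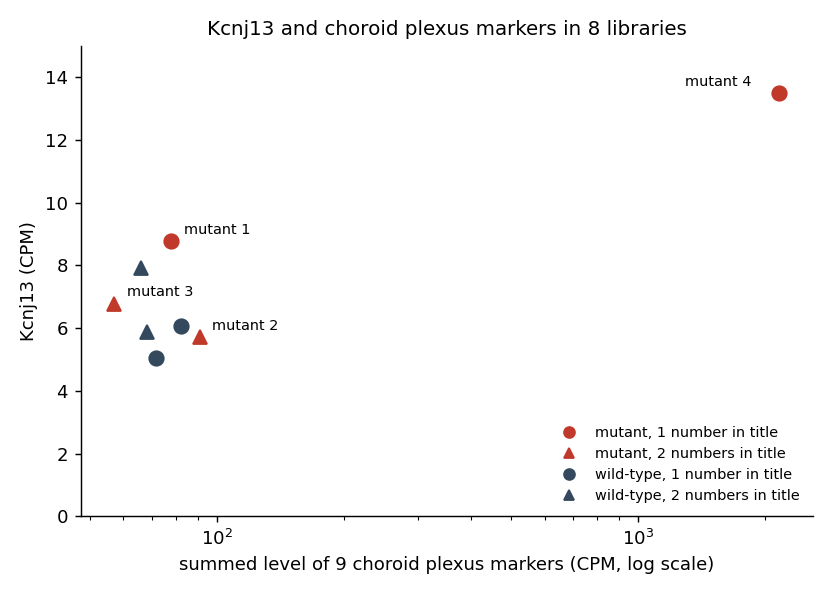
Kcnj13 level (CPM) against the summed level of 9 choroid plexus markers (CPM, log scale) in the 4 mutant and 4 wild-type libraries. Mutant replicate 4 lies alone at 13.5 CPM of Kcnj13 and 2161 CPM of the markers, and the other libraries lie between 57.0 and 91.1 CPM of the markers.

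Tyrosinase (Tyr), tyrosinase-related protein (Tyrp1) and Dct are related copper or zinc enzymes of melanin synthesis, and Tyr catalyses the limiting first step. The promoters of all 3 are textbook targets of MITF through a sequence called the M-box. Promoter sequences were available from RefSeq (GRCm38.p6) for 8 of the members, in 10 entries from 250 bases before to 50 after a gene's start, and were searched on both strands. The M-box core TCATGTG was present in 4 of these 8 genes (Dct, Tyr, Tyrp1 and Kcnj13), and in 3.77% of the 32851 promoters of that length. The percentages count promoter entries and not genes, and Mitf has 3 entries while each of these 4 genes has 1. The shorter E-box CATGTG, which lies within it, matched in the same 4 genes and in 14.2% of promoters, and the E-box CACGTG matched in Met alone and in 7.15% of promoters. AGGTCA, the hexamer bound by thyroid hormone receptors and other nuclear receptors, matched in Dct, Tyr, Tyrp1 and Mitf and in 16.3% of promoters. A match is a description of the letters and not evidence of binding. The 250 bases before the start are shown for the 4 genes with the M-box core, 5′ to 3′ on the strand of the gene, because they carry the shared element at different RNA levels. Capitals mark TCATGTG or its reverse complement CACATGA, and TGACCT, the reverse complement of the hexamer.
Dct: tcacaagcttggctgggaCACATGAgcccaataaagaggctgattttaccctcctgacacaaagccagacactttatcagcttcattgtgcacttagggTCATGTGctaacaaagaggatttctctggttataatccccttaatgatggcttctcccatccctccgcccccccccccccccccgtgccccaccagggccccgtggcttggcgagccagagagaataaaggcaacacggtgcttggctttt
Tyr: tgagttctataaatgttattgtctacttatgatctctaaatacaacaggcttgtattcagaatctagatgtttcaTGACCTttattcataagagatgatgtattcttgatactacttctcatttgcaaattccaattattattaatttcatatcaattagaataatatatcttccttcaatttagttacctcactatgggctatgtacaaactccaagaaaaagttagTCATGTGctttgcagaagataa
Tyrp1: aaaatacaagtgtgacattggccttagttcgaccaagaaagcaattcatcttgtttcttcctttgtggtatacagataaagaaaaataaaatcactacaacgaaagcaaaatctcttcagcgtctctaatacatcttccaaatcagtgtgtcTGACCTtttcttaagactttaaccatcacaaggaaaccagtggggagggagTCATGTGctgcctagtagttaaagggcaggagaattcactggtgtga
Kcnj13: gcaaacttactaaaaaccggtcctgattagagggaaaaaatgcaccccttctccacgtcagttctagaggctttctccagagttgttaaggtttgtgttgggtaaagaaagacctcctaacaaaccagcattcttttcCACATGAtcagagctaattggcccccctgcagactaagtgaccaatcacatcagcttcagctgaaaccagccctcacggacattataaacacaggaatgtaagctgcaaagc
These windows are chr14:118052247-118052496 (minus strand) for Dct, chr7:87493513-87493762 (minus strand) for Tyr, chr4:80833963-80834212 (plus strand) for Tyrp1 and chr1:87394730-87394979 (minus strand) for Kcnj13. Starts here are those of the RefSeq entries, whereas the gene coordinates given elsewhere in the text are from GENCODE M21. For Tyrp1 the GENCODE start, chr4:80834123, lies inside the window shown and before the core. The forward core began 151 bases before the RefSeq start in Dct, 22 in Tyr and 47 in Tyrp1. Reverse copies began 232 bases before the start in Dct and 112 in Kcnj13. The hexamer of Dct lay after the start, outside the window shown.

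Dct (chr14:118012790-118052244, minus strand) had 252.3, 188.6, 198.0 and 230.7 CPM in mutant replicates 1 to 4, against 298.7, 177.2, 215.2 and 300.2 CPM in wild-type replicates 1 to 4. Wild-type replicates 1 and 4 were highest, and the 4 mutant libraries all lay inside the wild-type range. Its log2 fold change was -0.19 (SE 0.18, 95% interval -0.61 to 0.23, edgeR adjusted p = 1), and it was -0.32 without wild-type replicate 2 and -0.075 without wild-type replicate 1. Tyr (chr7:87424771-87493512, minus strand) had 24.9, 19.4, 18.3 and 21.3 CPM in mutant replicates 1 to 4, against 20.7, 14.0, 17.4 and 19.0 CPM in wild-type replicates 1 to 4. Mutant replicates 1 and 4 exceeded all wild-type libraries, and wild-type replicate 2 was the lowest of the 8. Its log2 fold change was 0.24 (SE 0.15, 95% interval -0.092 to 0.57, edgeR adjusted p = 0.965), and it was 0.14 without wild-type replicate 2.

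Tyrp1 (chr4:80834123-80851719, plus strand) was scarce and erratic, with 10, 71, 6 and 28 counts in mutant replicates 1 to 4, against 51, 24, 20 and 13 counts in wild-type replicates 1 to 4. Exact Poisson 95% intervals, which cover counting error only, were 55.5 to 89.6 counts for mutant replicate 2 and 2.20 to 13.1 counts for mutant replicate 3, so libraries of 1 genotype differed by more than counting error. All wild-type libraries lay inside the mutant range, and the log2 fold change of 0.055 had a 95% interval from -1.63 to 1.74 (SE 0.74, edgeR adjusted p = 1). The sign turned without mutant replicate 2 (-0.84). Expressed as the biological coefficient of variation that edgeR estimates, the spread of Tyrp1 between libraries was 72.2%, against 14.5% to 31.0% for the other 9 members.

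Ratios of levels per length within a library were computed for all 45 pairs of members, and 3 of them (6.67%) did not overlap between genotypes. Over all pairs of the 20047 tested genes with a count in every library, 2.90% did not overlap. The pairs of members share genes and libraries, so that the 3 are not independent of each other. Dct over Tyr, 1 of the 3, was 12.2, 11.7, 13.1 and 13.1 in mutant replicates 1 to 4, against 17.4, 15.3, 14.9 and 19.1 in wild-type replicates 1 to 4. Every mutant library lay below every wild-type library. The ratio averaged 12.5 ± 0.661 in mutant and 16.7 ± 1.94 in wild-type libraries (SD, n = 4 each), a difference of -0.41 on the log2 scale (two-sided exact permutation p = 0.0286, the smallest that 4 against 4 libraries can give). After adjustment over the 45 ratios the p was 0.429, so no ratio passed, and in this design none could have passed alone. Another separating pair was Met over Tyr, at 1.47 ± 0.0631 in mutant and 1.70 ± 0.0794 in wild-type libraries (SD, n = 4 each). The remaining pair was Kcnj10 over Ednrb, at 1.56 ± 0.122 in mutant and 2.52 ± 0.751 in wild-type libraries (SD, n = 4 each). These ratios do not depend on library scaling, and they were examined after the single genes had been seen.

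**Figure D4:**
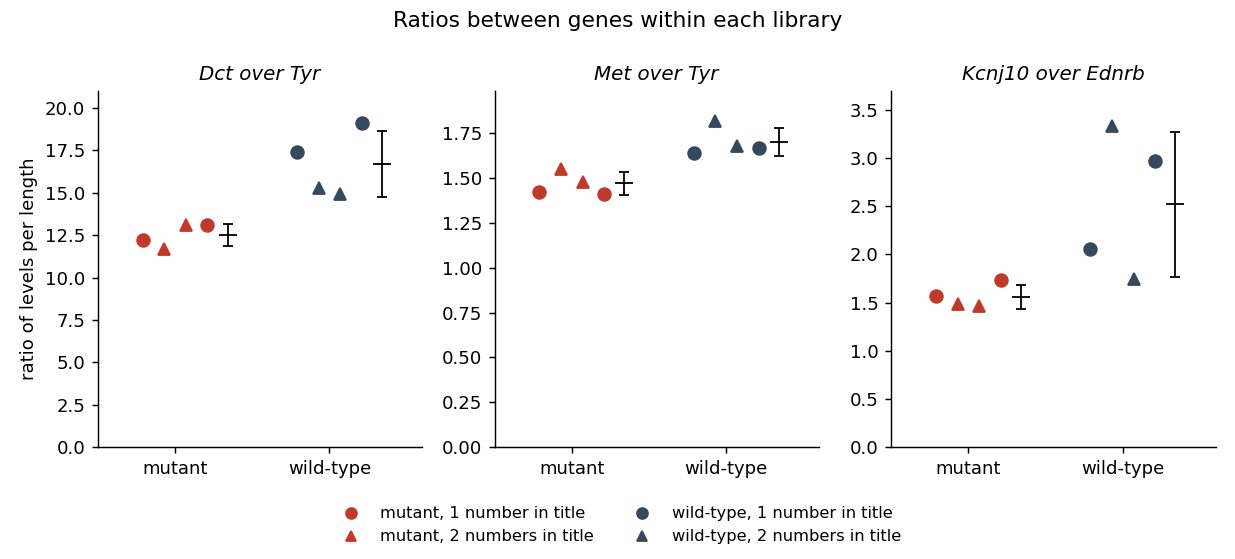
Ratios of levels per length between genes of the same library for the 3 pairs whose genotypes did not overlap, in mutant (red) and wild-type (dark grey) libraries, with the mean and SD of each genotype. Dct over Tyr lies between 11.7 and 13.1 in mutant libraries and between 14.9 and 19.1 in wild-type libraries.

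The melanosome proteins included the member with the smallest p. Pmel (chr10:128704195-128720238, plus strand), which forms the amyloid fibrils on which melanin is laid down, had 11.2, 10.1, 10.999 and 8.999 CPM in mutant replicates 1 to 4, against 7.85, 9.19, 8.58 and 8.10 CPM in wild-type replicates 1 to 4. Mutant replicates 1, 2 and 3 lay above every wild-type library, and replicate 4 fell just below wild-type replicate 2. The log2 fold change was 0.29 (SE 0.12, 95% interval 0.030 to 0.56, unadjusted p = 0.0329, edgeR adjusted p = 0.924), and the gene ranked 755 by p among all genes tested. Differences within title form were 0.33 for 1 number and 0.25 for 2 numbers on the log2 scale. Pmel overlaps exons of Cdk2 and Dgka on the opposite strand by 34 and 105 of its 2292 exon bases. Both of these genes had negative log2 fold changes, -0.14 and -0.15. Mlana (chr19:29697824-29708634, plus strand), a melanosomal membrane protein also called MART-1, had 4.43, 5.75, 3.88 and 5.77 CPM in mutant replicates 1 to 4, against 5.43, 4.25, 5.25 and 4.69 CPM in wild-type replicates 1 to 4. All its wild-type libraries lay inside the mutant range, and its log2 fold change was 0.014 (SE 0.17, 95% interval -0.38 to 0.41, edgeR adjusted p = 1).

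Mitf (chr6:97807052-98021349, plus strand), the transcription factor required for the melanocyte lineage, had 31.3, 49.2, 38.8 and 45.0 CPM in mutant replicates 1 to 4, against 36.1, 36.7, 43.5 and 36.3 CPM in wild-type replicates 1 to 4. Mutant libraries held both the lowest and the highest value. The log2 fold change was 0.11 (SE 0.14, 95% interval -0.21 to 0.43, edgeR adjusted p = 1), and it was 0.0090 without mutant replicate 2 and 0.22 without mutant replicate 1. Mitf is transcribed from several promoters, of which 1 serves melanocytes and others serve osteoclasts, macrophages and further cells, and counts per gene symbol do not separate their transcripts. Macrophage and osteoclast markers summed to between 480.4 and 664.3 CPM in mutant and between 310.8 and 915.0 CPM in wild-type libraries (8 genes, 3 positive, 5 negative, 0 called), and their part in the Mitf values was not tested.

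Ednrb (chr14:103814625-103844402, minus strand), the endothelin receptor that melanocyte precursors need to survive and migrate, had 76.0, 59.5, 74.3 and 86.3 CPM in mutant replicates 1 to 4, against 70.1, 33.4, 67.6 and 43.0 CPM in wild-type replicates 1 to 4. Mutant replicates 1, 3 and 4 lay above every wild-type library, and wild-type replicates 2 and 4 were well below the rest. The log2 fold change was 0.47 (SE 0.24, 95% interval -0.078 to 1.01, edgeR adjusted p = 0.926), and it was 0.30 without wild-type replicate 2. Differences within title form were 0.56 for 1 number and 0.48 for 2 numbers on the log2 scale. Ednrb is also expressed by endothelium and glia. Endothelial markers summed to between 210.5 and 334.6 CPM in mutant and between 179.3 and 268.6 CPM in wild-type libraries (6 genes, 6 positive, 0 called). Wild-type replicate 2 was lowest in them, and wild-type replicate 4 had 236.3 CPM. The glial markers summed to 8581 CPM in wild-type replicate 4, the lowest of the 8 libraries, and to 11140 CPM in wild-type replicate 2. The part of either list in the Ednrb values was not tested.

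Met (chr6:17463800-17573980, plus strand), the receptor of hepatocyte growth factor and a surface protein of intermediate cells, had 38.3, 32.4, 29.2 and 32.5 CPM in mutant replicates 1 to 4, against 36.6, 27.4, 31.6 and 34.3 CPM in wild-type replicates 1 to 4. The genotypes overlapped almost entirely, at a log2 fold change of 0.027 (SE 0.12, 95% interval -0.24 to 0.29, edgeR adjusted p = 1). The estimates for Ednrb and Kcnj13 lie above that interval, but their own 95% intervals (-0.078 to 1.01 and -0.14 to 1.10) contain the Met estimate. The ratios of Ednrb and of Kcnj13 to Met within a library overlapped between genotypes, so a difference from Met was not shown. Hgf, the ligand of MET, averaged 4.15 ± 0.466 CPM in mutant and 3.74 ± 0.552 CPM in wild-type libraries (SD, n = 4 each) and did not pass the test.

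**Figure D5:**
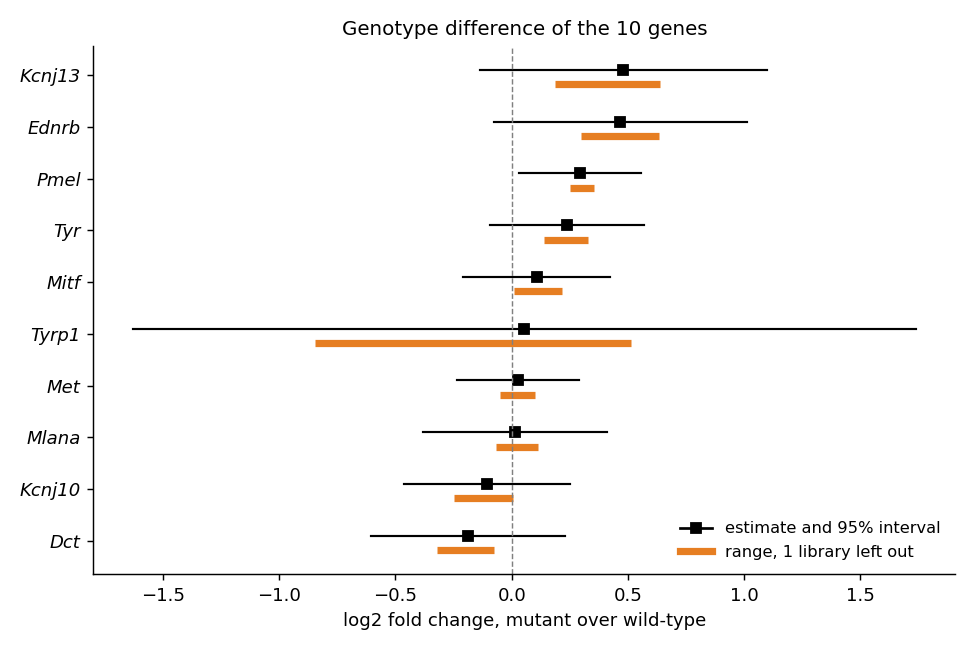
Log2 fold change (mutant over wild-type) of the 10 genes with its 95% interval (black) and the range of estimates with 1 library left out at a time (orange). The interval of Pmel lies above 0 before adjustment, those of the other 9 genes include 0, and Tyrp1 has the widest.

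No relation between members across the 8 libraries passed the threshold. Of 45 pairs, 29 had a positive and 16 a negative Pearson correlation of log2 CPM, with a median of 0.202. After adjustment over the 45 pairs the smallest p was 0.203, and 4 pairs had an unadjusted exact permutation p under 0.05. The strongest was Tyr with Met (r = 0.875, exact permutation p = 0.00451, adjusted 0.203, Spearman's rho = 0.857, exact permutation p = 0.0107, adjusted 0.346, n = 8), and without the 2 libraries farthest from the median of Tyr r was 0.573. Dct with Met had a coefficient of similar size (r = 0.798, exact permutation p = 0.0185, adjusted 0.278, rho = 0.833, exact permutation p = 0.0154, adjusted 0.346, n = 8), with r = 0.854 after the same omission for Dct. Also among the 4 were Tyrp1 with Mlana (r = 0.815, exact permutation p = 0.0179, adjusted 0.278, n = 8) and Tyr with Ednrb (r = 0.737, exact permutation p = 0.0365, adjusted 0.411, n = 8). Dct with Tyr had r = 0.579 (exact permutation p = 0.130, adjusted 0.667, rho = 0.548, exact permutation p = 0.171, adjusted 0.641, n = 8). With deviations from the genotype means in place of the levels, r was 0.918 for Dct with Tyr, 0.979 for Tyr with Met and 0.871 for Dct with Met. It was 0.825 for Tyrp1 with Mlana and 0.616 for Tyr with Ednrb. The smallest permutation p adjusted over the 45 pairs was then 0.0781, and again no pair passed. Dct, Tyr and Met averaged lower in samples with 2 numbers in the title than in those with 1, and the part of this in their relations was not tested. With 4 libraries per title form, correlations within title form were not computed.

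Samples with 2 numbers in the title were also compared with those with 1, a comparison added after the data had been seen. What the numbers in the titles stand for is not stated. With genotype as the other term, 9.39% of all genes tested differed between samples with 2 numbers and those with 1 at an adjusted p under 0.05 in edgeR, and among the members 1 of 10 did, a share near that of all genes. Leaving out 1 library lowered the 2008 calls over all genes to between 254 (without mutant replicate 1) and 1640 (without wild-type replicate 2). At an unadjusted p under 0.05, 4 of 10 members (Dct, Tyr, Kcnj10 and Met) and 26.9% of all genes differed. Dct was lower with 2 numbers, at 194.8 ± 16.1 CPM, against 270.5 ± 34.6 CPM with 1 number (SD, n = 4 each), which is -0.47 ± 0.092 (SE) as a log2 fold change at an edgeR adjusted p of 0.0257. The call was kept in 2 of 8 fits that left out 1 library (without mutant replicate 4 or wild-type replicate 2) and lost in the other 6, with adjusted p up to 0.0944 and log2 fold changes from -0.52 to -0.38. Kcnj10 averaged 135.0 ± 16.3 CPM with 2 numbers and 171.2 ± 17.4 CPM with 1 (SD, n = 4 each), which is -0.35 ± 0.11 (SE) as a log2 fold change at an edgeR adjusted p of 0.0814. Met averaged 30.1 ± 2.28 CPM with 2 numbers and 35.4 ± 2.55 CPM with 1 (SD, n = 4 each), which is -0.23 ± 0.082 (SE) as a log2 fold change at an edgeR adjusted p of 0.119. Tyr averaged 17.3 ± 2.33 CPM with 2 numbers and 21.5 ± 2.50 CPM with 1 (SD, n = 4 each). Its log2 fold change was -0.32 ± 0.095 (SE) at an edgeR adjusted p of 0.0796, and its title forms overlapped. For Dct, Kcnj10 and Met the title forms did not overlap, all 3 being lower with 2 numbers. This held for 7.90% of all genes, while 19.5% separated in either direction.

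No gene of the wider pigment pathway passed the test. Of 24 other genes of melanin synthesis and of melanosome formation and transport, 23 were tested and 0 passed in either direction, with 13 positive and 10 negative and a median log2 fold change of 0.033. Their changes lay between -0.32 and 0.29. The smallest p belonged to Hps3, a subunit of a complex that sorts cargo to melanosomes (104.3 ± 6.46 CPM in mutant and 93.7 ± 5.95 CPM in wild-type libraries, SD, n = 4 each), which is 0.16 ± 0.077 (SE) as a log2 fold change at an edgeR adjusted p of 0.925. The copper pump Atp7a, which supplies tyrosinase, came next at 0.29 (SE 0.15, edgeR adjusted p = 0.925). Hps1, of another sorting complex, and Rab27a, which tethers melanosomes to the cytoskeleton, had -0.20 (SE 0.15) and -0.32 (SE 0.24), both at an edgeR adjusted p of 0.985. Mc1r, the melanocortin receptor of skin melanocytes, had 1 count in each mutant library and 1 to 4 counts in wild-type libraries and was too low to be tested.

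Among 14 lineage regulators and ligands, 13 were tested and 0 passed, with 10 positive and 3 negative and a median log2 fold change of 0.064. Of the 13 tested, 2 did not overlap between genotypes (the endothelins Edn3 and Edn1), against 2.69% of all genes, and neither passed. Edn3, the ligand of EDNRB in melanocyte development, had 6.41, 4.0005, 4.603 and 4.82 CPM in mutant replicates 1 to 4, against 2.65, 3.15, 3.49 and 2.94 CPM in wild-type replicates 1 to 4. Every mutant library lay above every wild-type library (log2 fold change 0.70, SE 0.18, unadjusted p = 0.00422, edgeR adjusted p = 0.867). Edn1, the endothelin of vessels and epithelia, had 0.790, 1.89, 1.02 and 1.80 CPM in mutant replicates 1 to 4, against 2.51, 3.57, 2.44 and 2.53 CPM in wild-type replicates 1 to 4. Here every mutant library lay below every wild-type library (log2 fold change -1.01, SE 0.31, unadjusted p = 0.0101, edgeR adjusted p = 0.907). Wild-type replicate 2, with the most Edn1, also held the most mucosal epithelium markers, 667.6 CPM, and their part in the Edn1 values was not tested. Snai2, a transcription factor of neural crest cells, had a log2 fold change of 0.45 ± 0.19 (SE) at an edgeR adjusted p of 0.924, and Kitl, the ligand of the melanocyte receptor KIT, 0.10 (SE 0.088, edgeR adjusted p = 1). Sox10 and Kit, of the same list, had a log2 fold change of -0.015 ± 0.093 (SE) for Sox10 and 0.0080 ± 0.076 (SE) for Kit.

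Of 10 further genes known from intermediate cells but not restricted to them, 10 were tested and 0 passed, with 8 positive and 2 negative and a median log2 fold change of 0.028. The adhesion molecule Cadm1 averaged 113.1 ± 11.7 CPM in mutant and 88.6 ± 7.63 CPM in wild-type libraries (SD, n = 4 each), which is 0.35 ± 0.097 (SE) as a log2 fold change at an edgeR adjusted p of 0.879. Cadm1 was the only 1 of the 10 whose genotypes did not overlap, against 2.69% of all genes (1.28% higher), and it did not pass. The survival factor Bcl2, which melanocytes need to persist, had a log2 fold change of 0.23 ± 0.083 (SE) at an edgeR adjusted p of 0.911. The calcium-binding protein S100a1 had -0.37 (SE 0.17, edgeR adjusted p = 0.924), and Gch1, which makes a pterin cofactor, -0.48 (SE 0.29, edgeR adjusted p = 0.964).

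The genes whose pattern was most like that of a member over the 8 libraries were sought by Pearson correlation of log2 CPM among 14817 protein-coding genes with a mean of at least 1 CPM. For Dct they were Gpnmb, a melanosomal and macrophage glycoprotein (r = 0.972), then Esd, Wdr1, Mrps7 and Itgb5 (r = 0.971 to 0.968). For Kcnj10 the closest were the endothelial genes Mmrn2 and Flt1 (r = 0.971 and 0.961), then Igfbp7, Map7d1 and Sugt1 (r = 0.960 to 0.947). For Met they were Slc2a8, Ndufs1, Trim66, Vps41 and Uba2 (r = 0.951 to 0.931). Of the other members, Tyr ranked 53 and Dct 295 for likeness to Met, Met ranked 529 and Kcnj10 1328 for likeness to Dct, and Dct ranked 1157 for likeness to Kcnj10. These rankings describe 8 libraries that differ in depth and title form, and the part of either in them was not tested.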

How the data were processed

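RNA from whole inner ears of 4 mutant and 4 wild-type samples was extracted with TRIzol and a column kit and made into libraries with the Lexogen CORALL kit, which adds molecular identifiers, per the labels' protocols. The deposited files hold whole-number counts per gene symbol, which the authors made with STAR and HTSeq on mm10, per the submitters' processing notes. Versions, annotation, strand setting and the use of the identifiers were not stated in the labels or notes used here. Counting intervals and floors cover counting error only.

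All 21392 genes kept by filterByExpr were fitted with edgeR 4.0.16 in R 4.3.3 (TMM scaling, robust quasi-likelihood test, genotype as the only term), with Benjamini-Hochberg adjustment over all of them and a threshold of 0.05. CPM used TMM-scaled libraries. Log2 CPM for correlations used a prior count of 2. Levels per length used exon lengths of GENCODE M21. Of 47517 symbols, 45236 were its gene names. Exact permutation tests used scipy 1.17.1. The fits were tested on simulated data. Alternatives were DESeq2 1.42.0, limma 3.58.1, other scalings and filters, title form, a replicate block and leaving out each library.

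Named genes are all 10 members, up to 4 genes of each related list with the smallest p, and the 5 genes most like Dct, Kcnj10 and Met. Other genes named (Sox10, Kit, Hgf, Mc1r, Ttr, Folr1, Slc4a5, Rpe65 and overlapping genes) were chosen with their values known. Members and lists were chosen with earlier results of these data known. The choroid plexus list, ratios and title form comparison were added after these values had been seen.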

Additional observations from a re-analysis of the deposited data

Results flagged for a closer look

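Of 66 groups of 4 libraries examined, 8 held a library set apart from the others. Its gap to the nearest other exceeded Dixon's 95% critical value as a share of the group's range. For groups chosen beforehand chance alone gives about 1 in 20. Ttr and the choroid plexus list were examined with their values known, so the 8 cannot be set against that share. Mitf was high in wild-type replicate 3, at 43.5 CPM, against at most 36.7 CPM in the other wild-type libraries. Wild-type replicate 2 had the most Edn1, 3.57 CPM, where the other wild-type libraries had 2.44 to 2.53 CPM. The same library had the least Snai2, 5.88 CPM, where the others had 9.31 to 9.84 CPM. Its summed marginal cell markers were the lowest among wild-type libraries, at 976 CPM, while mutant replicates 2 and 3 had 936.2 and 929.7 CPM. Macrophage and osteoclast markers were highest in mutant replicate 1, at 664 CPM, against at most 510.1 CPM in the other mutant libraries. Mutant replicate 4 exceeded the other mutant libraries in retinal pigment epithelium markers (2040 CPM) and choroid plexus markers (2160 CPM). Both lists contain Ttr, at 2020 CPM in that library, and Ttr was also flagged as a single gene. The flags of this library thus rest on the same values.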

How the results depend on the processing

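None of the 10 members passed the threshold under any of 19 alternatives (smallest adjusted p in any tool 0.311), and of 190 member values 177 kept their sign. The sign turned with limma-voom for Tyrp1 (-0.39) and Mlana (-0.0053). Leaving out 1 library gave ranges of -0.051 to 0.10 for Met, -0.25 to 0.0070 for Kcnj10, -0.84 to 0.51 for Tyrp1, 0.0090 to 0.22 for Mitf, -0.32 to -0.075 for Dct and -0.067 to 0.11 for Mlana. Within title form, differences of mean log2 CPM were set against the sign of the edgeR fold change. They were opposite for Tyrp1 (-0.51 and -0.12), Met (-0.0066), Kcnj13 (-0.13) and Mlana (-0.0016). For Tyrp1, mean log2 CPM over all 8 libraries was also lower in mutant than in wild-type libraries. The turn of Tyrp1 thus goes with the change of measure. The median of the members ranged from 0.023 to 0.198 and that of the melanosome list from -0.026 to 0.045 with 1 library left out. Genes called between genotypes numbered 9 in edgeR, 68 with DESeq2, 16 with limma-voom, 5 with title form as covariate and 6 to 14 with 1 library left out (14 without mutant replicate 4). The causes were not tested.

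The labels share no replicate number across genotypes. A replicate block over neighbouring title numbers, an assumed pairing, gave 29 genes and -0.28 for Tyrp1. Deviations of neighbours correlated at 0.128, 0.252, 0.187 and -0.0384 in pairs 1 to 4. The neighbour was the best partner of the mutant library in pairs 2 and 3 and not in pairs 1 and 4. Neighbours also share their title form, so these values cannot decide whether the numbers mark pairs. The numbers were not taken as pairs.

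Between title forms 2008 genes were called, 1230 without the low-count filter, and 254 to 1640 with 1 library left out (254 without mutant replicate 1), of which members numbered 0 to 1. These alternatives were chosen after seeing the data. Tyrp1 had 6 to 71 counts per library, a spread beyond counting error.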

Other observations

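Mutant replicate 4 was the highest of the 8 libraries for 4 members (Kcnj10, Kcnj13, Mlana and Ednrb), and wild-type replicate 2 was the lowest for 4 (Dct, Tyr, Met and Ednrb). Mutant replicate 1 was highest for 3 members (Tyr, Pmel and Met).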
